A study of Homo sapiens with 6 samples.

Results

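The MYC locus and the gene desert around it were described by the nascent-strand sequencing (NS-seq) peaks that start between 127000000 and 131499999 on chromosome 8 of the T2T-CHM13 build, a stretch of 4.5 Mb. The members were chosen by position alone, and 1756 of the 945863 peaks in the 4 deposited lists qualified. NS-seq enriches short new DNA strands that begin at replication origins, by size selection and exonuclease digestion. The cells were U2OS, a human osteosarcoma line, transfected with a control siRNA (gl3; samples control 1 and control 2) or with an siRNA against ORCA (siORCA 1 and siORCA 2). ORCA is the product of LRWD1 and helps to keep the origin recognition complex on chromatin. The comparison asks how origin activity at the locus differed when ORCA was targeted. The assay reads DNA, so the fall in ORCA itself could not be checked, and 2 genomic DNA samples, 1 per transfection, were not analysed here.

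MYC encodes a transcription factor that drives cell growth and is often amplified or overexpressed in cancer. A replication origin just upstream of MYC was among the first human origins to be mapped, and it is usually described as a zone of several start sites and not as 1 point. The gene is flanked by long stretches with few protein-coding genes but with many enhancers and long non-coding RNAs. In the RefSeq gene order of GRCh38.p14, used here for names and order only, POU5F1B (a retrogene of the stem-cell factor OCT4) and CASC11 precede MYC. The long non-coding RNA PVT1 follows it, then CCDC26, and then the protein-coding genes GSDMC (a gasdermin), CYRIB (a regulator of actin through RAC1) and ASAP1 (an Arf GTPase-activating protein). No annotation of T2T-CHM13 was used, so MYC was placed near 128.86 Mb, a position given to the nearest 10 kb, and single peaks carry no gene annotation. Lower coordinates are upstream of MYC, which is read toward higher coordinates.

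The 4.5 Mb held 319 peaks in control 1 and 356 in control 2, against 557 in siORCA 1 and 524 in siORCA 2. No control list reached the count of either siORCA list: the means were 337.5 ± 26.2 for control and 540.5 ± 23.3 for siORCA (SD, 2 samples per group). The exact two-sided permutation p was 0.333, the smallest that 2 against 2 samples allow. With all lists shortened to the same covered length, the counts were 319 and 293 for the controls and 328 and 430 for siORCA 1 and siORCA 2, so the difference between the means fell from 203 to 73 peaks and siORCA 1 came close to control 1. The lists hold no read counts, so depth is unknown, and the siORCA 1 list is the longest of the 4 over the genome. Relative to its own list, the locus held 0.176% of the peaks of control 1, 0.151% of control 2, 0.169% of siORCA 1 and 0.264% of siORCA 2. By this measure siORCA 1 lay between the controls and only siORCA 2 stood above them.

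Peaks covered 85.2 kb of the locus in control 1, 87.5 kb in control 2, then 116 kb in siORCA 1 and 154 kb in siORCA 2. As a share of the length covered by the whole list, these were 0.146%, 0.130%, 0.135% and 0.240%, in the same order. The mean share was 0.138 ± 0.0107% for control and 0.188 ± 0.0744% for siORCA (SD, 2 samples per group; exact two-sided permutation p = 0.667), and the groups overlapped. Without siORCA 2 the difference between siORCA and control, 0.0496 percentage points with all samples, turned to −0.00307. The covered length per base, divided by that of the whole genome in the same list, was 1.01 in control 1 and 0.904 in control 2, against 0.935 in siORCA 1 and 1.66 in siORCA 2. In 3 lists the locus was therefore covered about as densely as the genome, and in siORCA 2 more densely.

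**Figure D1:**
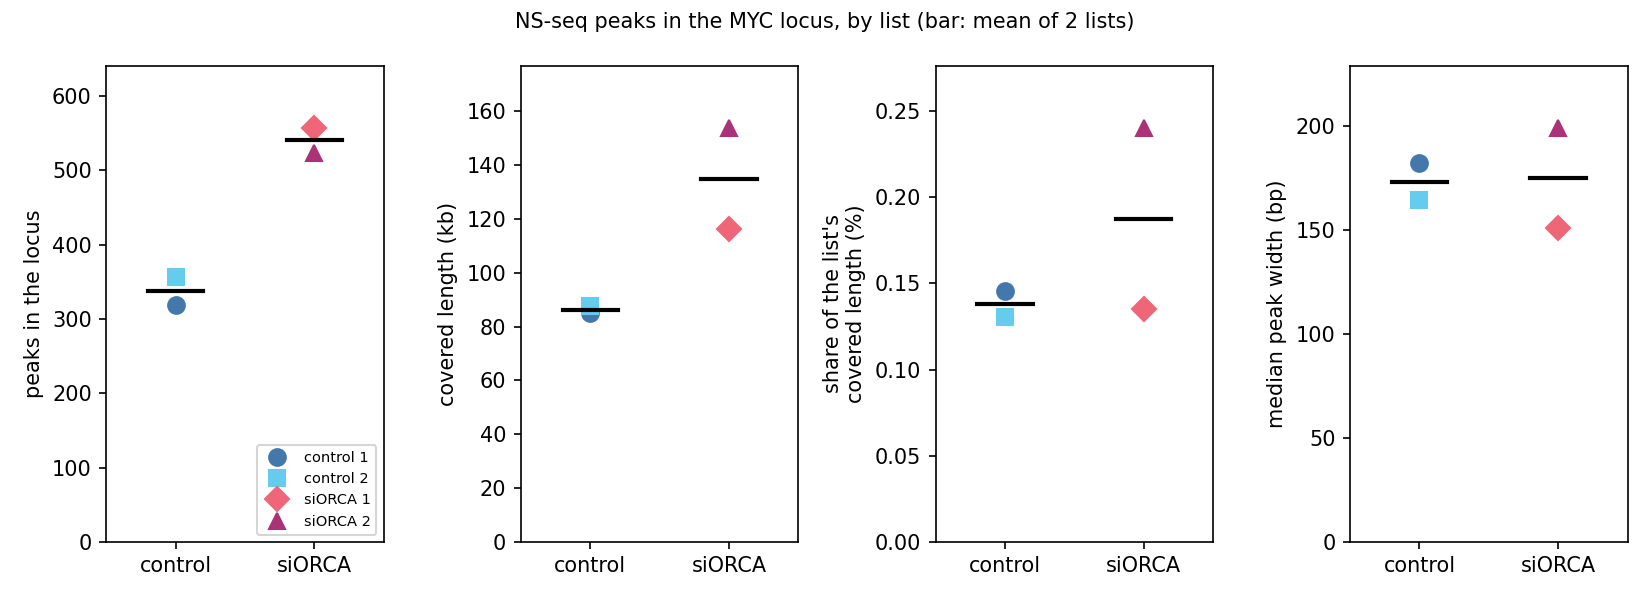
Number of peaks, covered length in kb, share of the list's covered length in percent and median peak width in bp in the MYC locus, with 1 point per list and a bar at the mean of each group of 2 lists. Both siORCA lists hold more peaks than both controls, whereas only siORCA 2 (0.240%) has a larger share of its own covered length than the controls.

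The high share in siORCA 2 was not limited to the MYC locus. In the 4.5 Mb below it, the covered length per base relative to the genome was 1.39, 1.13, 1.23 and 1.97 in control 1, control 2, siORCA 1 and siORCA 2. In the 4.5 Mb above it, the same ratio was 1.87, 1.50, 1.52 and 2.55. Along chromosome 8, cut into 32 windows of this length, siORCA 2 had the highest share of the 4 lists in each of the last 6 windows, from 118 Mb onward. There its share was 1.36 to 1.75 times the mean of the other lists, with the highest ratio of all 32 windows at the MYC locus. In the other 26 windows the ratio ran from 0.483 to 1.32, with a median of 0.825. The windows were compared after the neighbours of the locus had been seen. What part of the siORCA 2 values at MYC comes with this longer stretch was not tested. The genomic DNA samples were not analysed here, so the amount of DNA along the chromosome in each transfection was not measured, and its part in these shares was not tested. The main comparisons between groups are given below with and without siORCA 2.

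**Figure D2:**
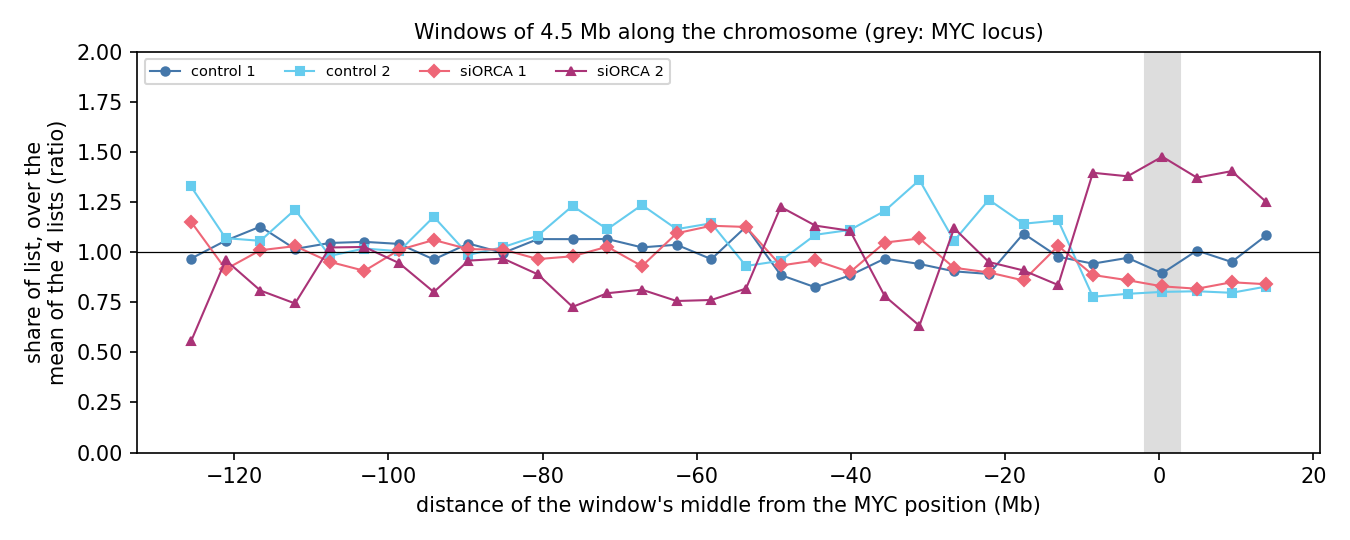
Share of each list's covered length in 32 windows of 4.5 Mb along chromosome 8, divided by the mean of the 4 lists, against the distance of the window's middle from the MYC position in Mb. The line of siORCA 2 lies above the others in the last 6 windows, which include the MYC locus (grey).

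The medians of their widths were 182 bp (control 1), 164.5 bp (control 2), 151 bp (siORCA 1) and 199 bp (siORCA 2). Over the whole lists they were 216, 189, 167 and 212 bp. In each list the median was thus below that of the genome, and the control values lay between those of the siORCA samples (means 173 ± 12.4 bp for control and 175 ± 33.9 bp for siORCA, SD, 2 samples per group; exact two-sided permutation p = 1.0). From the lower to the upper quartile, widths ran from 136 to 334 bp in control 1 and from 122 to 297 bp in control 2. In siORCA 1 they ran from 113 to 236 bp, and in siORCA 2 from 143 to 348 bp. Peaks over 1 kb numbered 6, 5, 3 and 14, in the same order, and the widest measured 1620, 1932, 1382 and 1552 bp. The order of the lists by median width was different in the locus and in the genome: control 1 had the wider median over the whole lists, and siORCA 2 had it here.

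The authors' fold enrichment over background had a median of 3.81 in control 1 and 3.78 in control 2, against 4.44 in siORCA 1 and 3.81 in siORCA 2 in the locus. The whole-list medians were 3.82, 3.94, 4.51 and 4.21. The locus was therefore close to its list in control 1 and siORCA 1 and somewhat lower in control 2 and siORCA 2. The share of peaks reaching 3 in −log10 q was 40.8% and 38.5% in the controls and 67.1% and 49.2% in siORCA 1 and siORCA 2, against 35.9%, 41.5%, 64.6% and 56.8% over the lists. In control 2 and siORCA 2 such peaks were a smaller share of the locus than of the whole list. In control 1 and siORCA 1 they were a larger share.

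Coverage was gathered around and downstream of MYC. The segment from 129.0 to 129.5 Mb held 19.9 kb in control 1 and 17.2 kb in control 2, against 25.4 kb in siORCA 1 and 30.9 kb in siORCA 2. These were 23.3%, 19.6%, 21.9% and 20.1% of what each list covered in the locus. The 0.5 Mb that holds MYC, from 128.5 to 129.0 Mb, came next, with 14.1, 12.0, 24.1 and 27.5 kb. Each list had its 2 most covered segments of 500 kb here, except control 2, where the segment from 130.5 to 131.0 Mb (12.0 kb, or 13.7% of its locus length) and the MYC segment (13.7%) were equal to 3 digits. At the other end, 130.0 to 130.5 Mb held 3.78 kb in control 1 and 6.11 kb in control 2, against 5.87 kb in siORCA 1 and 8.20 kb in siORCA 2. The segment from 127.0 to 127.5 Mb held 4.48, 6.02, 6.84 and 6.56 kb.

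Divided by each list's own covered length in the locus, the MYC segment made up 16.6% in control 1 and 13.7% in control 2, against 20.7% in siORCA 1 and 17.9% in siORCA 2. Both siORCA samples lay above both controls there. Of the 9 segments, the groups were apart in this way only in that segment and in 2 with smaller siORCA values. Those were 128.0 to 128.5 Mb (8.16%, 8.17%, 7.13% and 7.59%) and 129.5 to 130.0 Mb (8.35%, 8.11%, 6.59% and 7.94%, in the order control 1, control 2, siORCA 1, siORCA 2). With siORCA 1 alone against the controls, the MYC segment was still the only one above both, and 4 segments were below both. With siORCA 2 alone, 3 segments were above both, those from 127.5, 128.5 and 131.0 Mb, and 3 were below both. In zones centred on the MYC position the groups overlapped on this scale. Within 250 kb the values were 21.9%, 17.9%, 28.0% and 21.3%, and within 500 kb 41.0%, 33.6%, 43.7% and 38.4%, in the same order. This scaling was chosen after the values were seen, and no test was made on it. The share of separated segments over the genome was not computed on this scale. For tested 50 kb bins over the genome, scaled to the whole list, both siORCA samples lay above both controls in 16.8%. Both lay below in 16.1%. The count of separated segments is therefore not read as a trait of the MYC segment.

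In bins of 50 kb, the locus has 90. The median bin held 718 bp of peaks in control 1, 856.5 bp in control 2, then 964.5 bp in siORCA 1 and 1243.5 bp in siORCA 2, and the highest bin held 4130, 3862, 7297 and 5426 bp. The number of peaks in a bin reached 13, 10, 21 and 16, and the median width of the peaks in a bin ranged from 94 bp in a bin of control 2 to 1034 bp in a bin of control 1. Bins without a peak numbered 5 in control 1 and 4 in control 2, against 2 in siORCA 1 and 3 in siORCA 2, and no bin was empty in all 4 lists. The siORCA 2 list had the largest share of its own length in 60 of 90 bins, control 1 in 13, control 2 in 9 and siORCA 1 in 8.

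The richest bin by mean share lay from 129.05 to 129.10 Mb, about 0.2 Mb downstream of MYC. It held 4130 bp in 13 peaks in control 1 and 2921 bp in 10 in control 2, against 7297 bp in 20 in siORCA 1 and 5426 bp in 16 in siORCA 2. It also held 7 regions found in all 4 lists, the most of any bin. The bin from 129.00 Mb, its neighbour, covered 3349, 2754, 5344 and 5104 bp. In both bins, each siORCA sample covered more bp than each control, as in the locus as a whole. The bin from 129.20 Mb covered 2939, 2465, 3628 and 3031 bp, and the bin from 128.85 Mb, which holds MYC, 1973, 1871, 3400 and 4551 bp. The remaining rich bin lay far downstream, from 131.10 Mb, and varied little between lists, at 4084, 3862, 4817 and 4296 bp. In bp, each siORCA sample was above each control in all of these bins. As a share of each list's length, the groups overlapped in the bins from 129.20 and 131.10 Mb. Both siORCA samples lay above both controls in the others, as in 16.8% of tested bins over the genome.

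**Figure D3:**
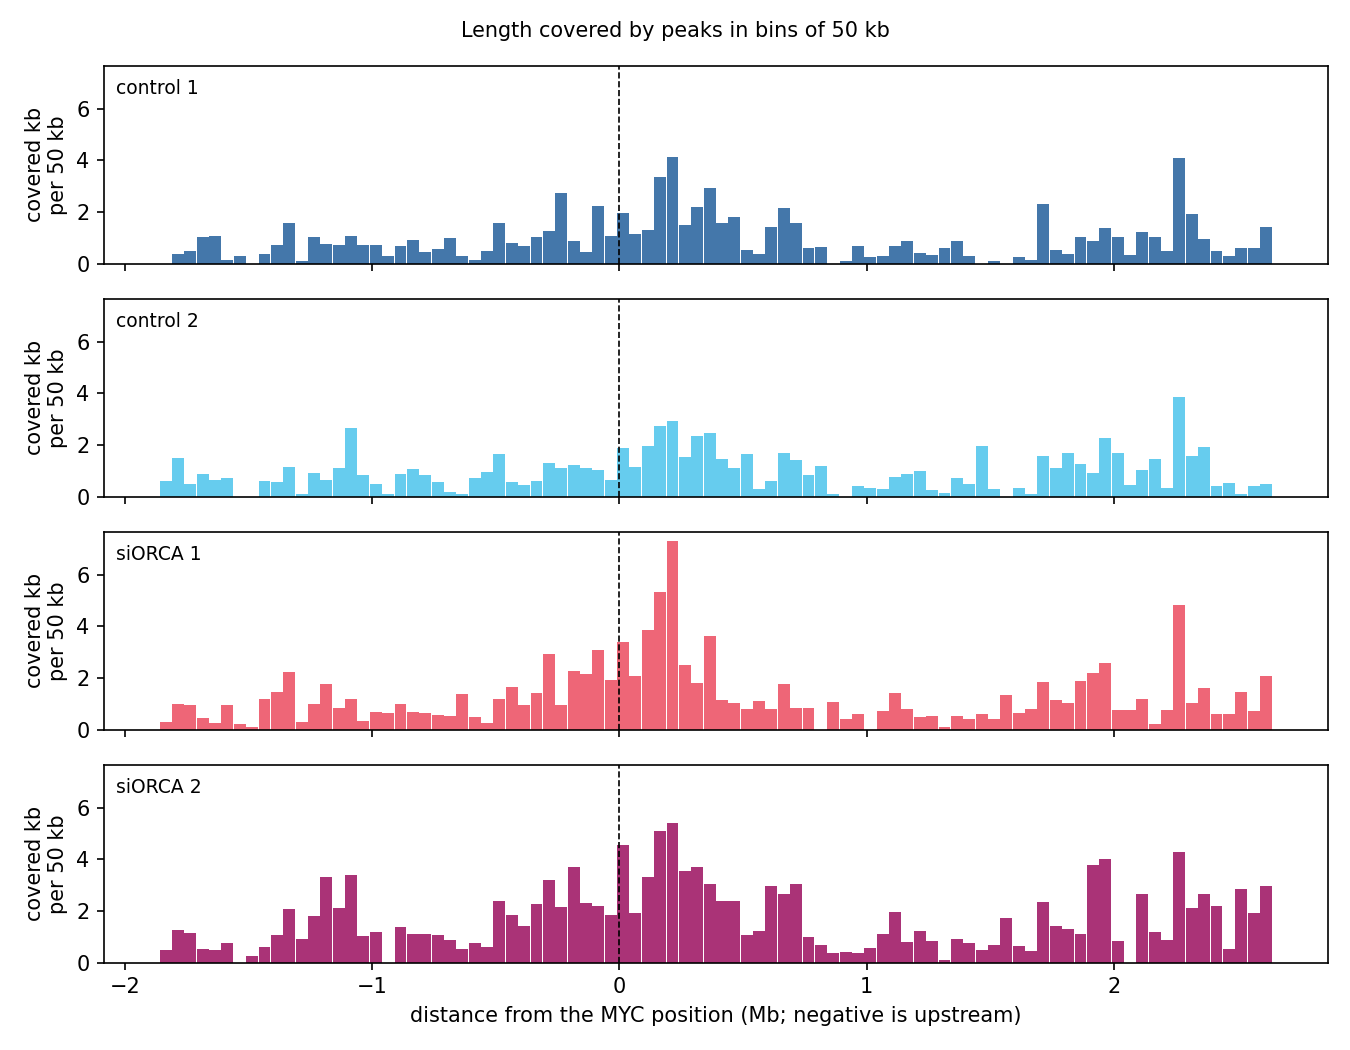
Length covered by peaks in kb in each of 90 bins of 50 kb, 1 panel per list, against the distance from the MYC position in Mb (dashed line at 0). All 4 lists rise around and just downstream of MYC, are sparse near the upstream end and from 130.0 to 130.5 Mb, and share a high bin at 131.10 Mb.

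To compare groups bin by bin, log2(covered bp + 100 bp) relative to the list's total covered length was fitted with limma over the 31008 bins of the genome that held at least 500 bp on average. Of the 90 bins of the locus, 74 entered the fit. None was called at an adjusted p of 0.05 (0 higher and 0 lower in limma with Benjamini-Hochberg adjustment), and over the genome 0% of bins were called higher and 0.00322%, 1 bin, lower. At an unadjusted p under 0.05, limma gave 7 bins higher and 0 lower in the locus, where 4.86% of bins did so over the genome in both directions together. The smallest adjusted p in the locus was 0.838. The median log2 difference over the 74 bins was 0.30 (0.004 over all bins), and without siORCA 2 it was −0.16.

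Both siORCA samples had a larger share than both controls in 24 of the 74 bins (32.4%, against 16.8% of bins over the genome), and a smaller one in 5 (6.76%, against 16.1%). The excess was seen with siORCA 2 and not with siORCA 1. With siORCA 2 alone against the controls, 54 of 74 bins were above both and 6 below both, where 32.4% and 33.0% of bins over the genome were. With siORCA 1 alone, 25 bins were above both controls and 30 below both, 33.8% and 40.5%, against 31.9% and 29.0% over the genome.

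The bins with the smallest p above control were 3 that did not pass. From 131.35 to 131.40 Mb, peaks covered 590 bp in control 1 and 115 bp in control 2, against 1456 bp in siORCA 1 and 2849 bp in siORCA 2, so that siORCA exceeded control by 2.23 on the log2 scale (SE 0.71; adjusted p = 0.838 in limma). Without control 1 this bin had an adjusted p of 0.0222 in limma at a log2 difference of 3.17, in a fit that leaves 1 control and assumes that it varies like the other group. From 130.75 Mb the values were 872, 903, 2204 and 3764 bp (log2 difference 1.35, SE 0.53), and from 127.65 Mb 751, 654, 1755 and 3298 bp (1.40, SE 0.56), in the same order of lists. For both, limma gave an adjusted p of 0.992. Without siORCA 2 the 3 differences were 1.55, 0.76 and 0.75.

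Of the bins below control, those with the smallest p also did not pass. The bin from 129.65 Mb held 650 bp in control 1 and 1199 bp in control 2, against none in siORCA 1 and 688 bp in siORCA 2 (log2 difference −2.06, SE 1.26). From 130.85 Mb peaks covered 1050, 1685, 765 and 844 bp (−0.91, SE 0.60), and from 127.15 Mb 1030, 891, 451 and 513 bp (−1.11, SE 0.78). For each of the 3, limma gave an adjusted p of 0.998. Without siORCA 2 the differences were −3.76, −1.19 and −1.40. Without siORCA 1 the first was −0.36, so its size came from the empty siORCA 1 bin.

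Peaks of the 4 lists were merged wherever they touched, which gave 988 regions in the locus, 220 per Mb, against 172 per Mb over the genome. Regions in all 4 lists are called constant. The term gained stands for presence in both siORCA lists with no control peak, and lost for the reverse. Of the 988, 94 (9.51%) were constant, against 10.7% of regions over the genome, and 560 (56.7%) were in 1 list only, against 60.1%. Gained regions numbered 88 (8.91%, against 5.44% over the genome) and lost regions 10 (1.01%, against 1.67%).

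The share of gained regions stood above that of the genome together with other classes that include siORCA 2. Regions in siORCA 2 alone made up 15.0% of the locus and 6.62% of the genome, and regions shared by control 1 and siORCA 2 only made up 4.15% and 1.86%. Regions in siORCA 1 alone were 22.1% of the locus and 27.0% of the genome. With siORCA 2 left out, regions in siORCA 1 but no control were 313 of 856 (36.6%), close to the 35.0% of the genome. With siORCA 1 left out, regions in siORCA 2 but no control were 239 of 774 (30.9%), against 16.7%. With all lists shortened to the same covered length, 44 regions were gained (5.71%, against 4.32% over the genome) and 11 lost (1.43%, against 2.67%). Each class is looser with a sample left out, in the locus and over the genome. Lost regions then numbered 136 without control 1 (14.8%, against 21.3% over the genome) and 83 without control 2 (9.56%, against 12.9%). They numbered 20 without siORCA 1 (2.58%, against 4.16%) and 29 without siORCA 2 (3.39%, against 3.40%). Gained regions numbered 148 without control 1 (16.1%, against 10.7% over the genome) and 131 without control 2 (15.1%, against 11.3%). Constant regions numbered 153 without control 2 (17.6%, against 18.1%).

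The widest gained region ran from 129072030 to 129073017, 212.5 kb downstream of the MYC position, with 956 bp of peak for siORCA 1 and 896 bp for siORCA 2. The next ones lay from 129061956 to 129062813, covered over 858 and 185 bp, and from 128665914 to 128666765 upstream of MYC, covered over 503 and 541 bp. Folds were 5.84 and 4.06 in the first region and 3.16 to 3.59 in the others. The 10 lost regions had a median width of 388.5 bp, against 260 bp for the 88 gained regions. Over the genome the order was the same, at 311 and 254 bp. The widest lost region, from 130042752 to 130043484, was covered over 136 bp in control 1 and 733 bp in control 2. Regions from 130819215 to 130819892 (483 and 658 bp) and from 129672233 to 129672791 (158 and 546 bp) followed. Within 250 kb of MYC, 25 of 171 regions were gained (14.6%, against 5.44% over the genome) and 0 were lost, where 1.67% were over the genome. Without siORCA 2, regions in siORCA 1 but no control were 62 of 159 there (39.0%, against 35.0% over the genome), and 2 were lost. Without siORCA 1, those in siORCA 2 but no control were 40 of 135 (29.6%, against 16.7%).

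**Figure D4:**
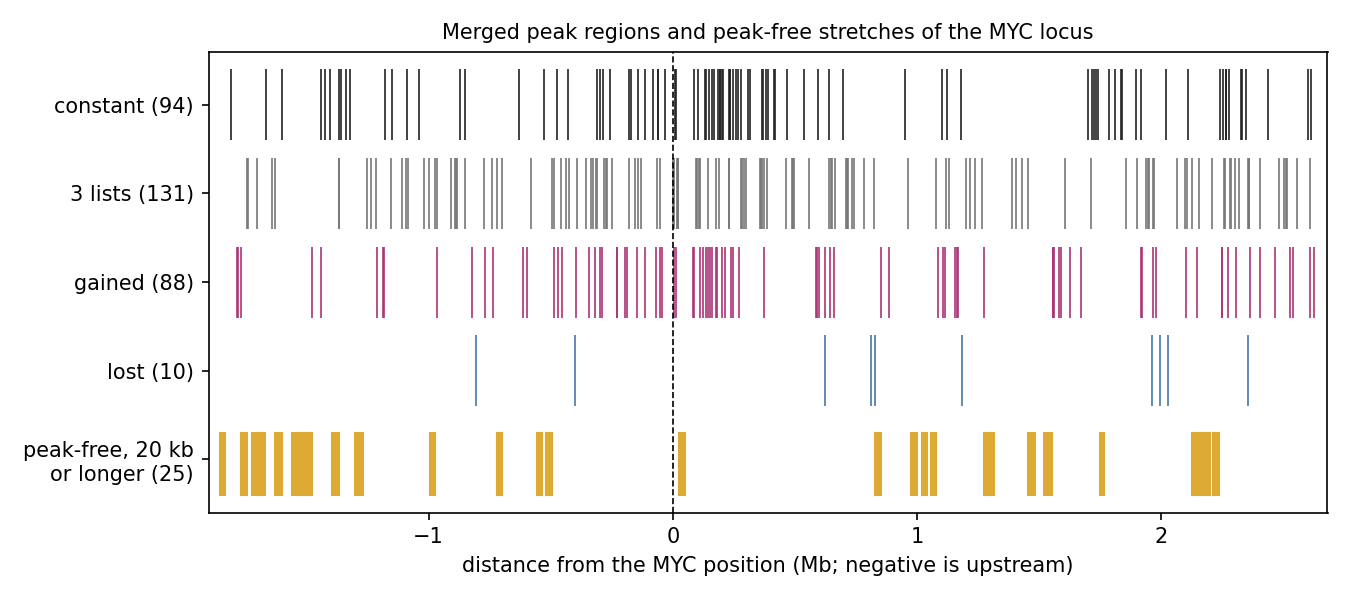
Positions of constant regions, regions in 3 lists, gained and lost regions (1 line each), and stretches of at least 20 kb without a peak in any list (boxes), against the distance from the MYC position in Mb. Within 250 kb of MYC lie 26 of the 94 constant and 25 of the 88 gained regions, and only 1 peak-free stretch lies within 100 kb.

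Constant regions were spread unevenly. There were 18 among 146 merged regions from 128.5 to 129.0 Mb and 27 among 179 from 129.0 to 129.5 Mb. This stood against 1 among 77 from 130.0 to 130.5 Mb and 4 among 84 from 129.5 to 130.0 Mb. Regions of all classes were thus also more numerous in the first 2 segments. Over the whole locus 9.51% of regions were constant, against 10.7% over the genome. They were found in 52 of the 90 bins, with a median of 22.0 kb from the start of one region to the start of the next. Their merged width had a median of 538 bp and ranged from 161 to 1983 bp, and the genome's constant regions had a median of 669 bp. The median fold of constant regions was 4.26, 4.47, 5.37 and 4.73 in control 1, control 2, siORCA 1 and siORCA 2. Regions in 1 list only had 3.50, 3.55, 3.99 and 3.42. Constant regions over the genome had 4.57, 4.78, 6.73 and 5.31. By median, the constant regions of the locus were thus stronger in each list than regions in 1 list only. They were weaker than constant regions over the genome. Strong sites are more easily called in every list, and a merged region takes the highest fold of its peaks.

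Constant regions took up 40.4% of the covered length of the locus in control 1, 35.9% in control 2, then 26.3% in siORCA 1 and 28.1% in siORCA 2. Over the genome they took up 46.5%, 37.2%, 33.0% and 46.3%. The siORCA 2 value was thus the one farthest below its own list. Both siORCA samples covered more bp than both controls in 21 of the 94 constant regions (22.3%, against 24.7% over the genome) and fewer in 7 (7.45%, against 11.4%). The first share was close to the background and the second was below it. With siORCA 1 alone against the controls, 31 were covered more (33.0%, against 39.7% over the genome) and 26 less (27.7%, against 26.9%). With siORCA 2 alone, 42 were covered more (44.7%, against 41.4%) and 13 less (13.8%, against 21.8%).

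The strongest constant region lay upstream of MYC, from 128681542 to 128681774, at −178.3 kb from the MYC position. Its fold was 24.0 in control 1 and 26.3 in control 2, against 40.8 in siORCA 1 and 14.0 in siORCA 2, and it had the highest fold of the locus in all 4 lists. It was narrow, with 204, 166, 177 and 203 bp covered. The next by its lowest fold was from 129250602 to 129250848, at 14.7, 7.38, 11.9 and 9.20. A region far downstream, from 131136039 to 131138021, was the widest constant region of the locus, covered over 1538, 1932, 1073 and 1078 bp at folds of 5.91, 6.65, 16.1 and 7.75. Also among the strongest were a pair of neighbours about 0.2 Mb downstream of MYC. The narrow one, from 129061329 to 129061553, had folds of 5.73, 6.21, 10.8 and 8.07, and the other, from 129066561 to 129067265, had folds of 5.44, 5.39, 5.88 and 5.74. These regions were ranked by the lowest of their folds over the 4 lists. Folds were not scaled between lists, and no test of folds between the groups was made.

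Within 100 kb of the MYC position there were 54 merged regions, of which 9 were in 3 lists. Of the 54, 7 were constant (13.0%, against 10.7% over the genome), 7 were gained (13.0%, against 5.44%) and 0 were lost, where the background of 1.67% amounts to less than 1 region. Without siORCA 2, 18 of 51 regions were in siORCA 1 but no control (35.3%, against 35.0% over the genome). The lists held 24, 18, 37 and 27 peaks in this zone and covered 6.40 kb in control 1 and 5.31 kb in control 2, against 10.5 kb in siORCA 1 and 10.7 kb in siORCA 2. Relative to the genome, coverage per base was 1.70, 1.23, 1.90 and 2.60. Within 250 kb it was 1.99, 1.46, 2.36 and 3.19, above the genome in every list. As a share of each list's covered length in the locus, the zone of 100 kb held 7.51%, 6.07%, 9.05% and 6.93%, so the groups overlapped there.

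The constant region nearest to MYC ran from 128868917 to 128869585, with its middle 9.3 kb from the MYC position. It was covered over 283 bp in control 1 and 253 bp in control 2, against 331 bp in siORCA 1 and 658 bp in siORCA 2, at folds of 5.93, 6.31, 6.35 and 5.10. The next, from 128873731 to 128874908, was covered over 222, 1081, 603 and 1001 bp at folds of 3.05, 3.66, 5.08 and 4.42. Both siORCA samples were wider than both controls in the first, and the groups overlapped in the second.

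On the upstream side, the nearest constant region ran from 128826069 to 128826437, at −33.7 kb from the MYC position. It was covered over 296, 124, 369 and 158 bp at folds of 4.81, 5.77, 5.28 and 5.06, in the order control 1, control 2, siORCA 1 and siORCA 2. Farther up lay a pair less than 1 kb apart. The region from 128797450 to 128797989 was covered over 319, 105, 412 and 217 bp, and that from 128798769 to 128800301 over 790, 120, 1382 and 679 bp. The constant region from 128780383 to 128781429 was covered over 165, 617, 292 and 914 bp. Downstream, the last within 100 kb ran from 128945377 to 128946033 and was covered over 427, 266, 127 and 593 bp. In none of the 7 except the nearest downstream one did the groups separate. Over the genome, both siORCA samples covered more bp than both controls in 24.7% of constant regions and fewer in 11.4%. The count near MYC is thus not above that background.

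**Figure D5:**
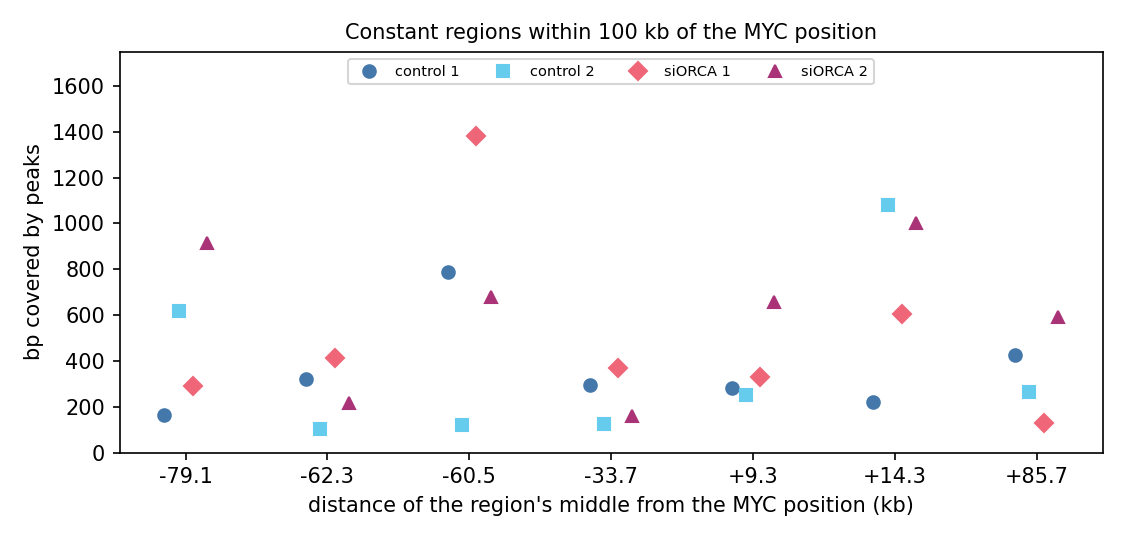
Length in bp covered by peaks in the 7 constant regions within 100 kb of the MYC position, 1 symbol per list, against the distance of the region's middle from that position in kb. At +9.3 kb both siORCA points lie above both control points, and in the other 6 regions the groups overlap. Over the genome, both siORCA samples cover more than both controls in 24.7% of constant regions.

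Closest of all to the MYC position were a pair of regions in 3 lists, absent from control 2. The region from 128862351 to 128862784 was covered over 120 bp in control 1, 365 bp in siORCA 1 and 336 bp in siORCA 2, at folds of 3.37, 4.40 and 4.57. The region from 128863147 to 128863500 was covered over 299, 346 and 334 bp, at folds of 3.57, 6.43 and 6.11. A gained region followed from 128864081 to 128864412, with 197 and 162 bp in siORCA 1 and siORCA 2. Whether any of these lies upstream of the gene, where the classical origin was mapped, or inside it was not tested. Within 10 kb the lists held 4, 2, 6 and 4 peaks.

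Poor stretches lay on each side of MYC. The longest stretch without a peak in any list was 43.8 kb, from 131015357 to 131059193, and the next downstream were 43.2 kb from 130132335 and 32.7 kb from 130379622. Upstream, the longest were 40.1 kb from 127300986 to 127341080, 39.6 kb from 127341426 to 127381036 and 34.7 kb from 127557079 to 127591801. Only a peak region of 345 bp parted the first 2 of these. Such stretches of at least 20 kb numbered 13 upstream and 12 downstream and made up 15.2% of the locus, against 34.0% of the genome. The locus thus held a smaller share of such long stretches than the genome as a whole. The median peak-free stretch was not shorter, at 2.41 kb in the locus and 2.24 kb over the genome with all lists merged. In each single list it was longer in the locus too, at 7.90, 7.25, 4.74 and 4.62 kb against 5.73, 5.13, 3.40 and 4.45 kb over the genome. The nearest to MYC was 21.2 kb long and began 27.3 kb downstream of the MYC position, from 128887269 to 128908509.

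In single lists the longest peak-free stretches were longer. Upstream they measured 81.6 kb in control 1 and 145 kb in control 2, against 54.7 kb in siORCA 1 and 91.2 kb in siORCA 2, and downstream 102, 109, 77.4 and 63.1 kb. Except in siORCA 1, the longest upstream stretch began between 127.26 and 127.29 Mb in each list. Stretches of at least 20 kb made up 61.1% and 56.8% of the locus in the controls and 36.4% and 38.0% in siORCA 1 and siORCA 2. Over the genome they made up 72.5%, 63.4%, 54.0% and 71.3%. The groups did not overlap at the locus, and the whole-list value of siORCA 2 lay within the range of the controls.

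The longest stretch without a constant region spanned 516 kb, from 130041663 to 130557700. It held 78 regions, of which 53 were in 1 list only and 8 were gained. Regions in 1 list only made up 56.7% of the whole locus and 60.1% of the genome, and gained regions 8.91% and 5.44%. The stretch was picked for holding no constant region, which by itself raises the shares of the other classes in it. Peaks covered 3.17 kb of it in control 1, 6.09 kb in control 2, then 5.85 kb in siORCA 1 and 7.82 kb in siORCA 2, between 0.327 and 0.738 of each list's coverage per base of the genome. The next downstream stretch, from 129557670 to 129810632, spanned 253 kb. Upstream, the longest spanned 222 kb, from 128008914 to 128231313, followed by 164 kb from 127822925 to 127986884. A stretch of 162 kb from 127259765 to 127421327 was the poorest of these by coverage. It held 1 peak in control 1 and 2 in control 2, against 11 in siORCA 1 and 6 in siORCA 2, and both siORCA samples covered more of it (1.74 and 1.19 kb) than both controls (0.290 and 0.273 kb). This stretch too was picked for holding no constant region, and then for its low coverage. Such a pick can by itself favour places where the controls have few peaks. Both siORCA samples also covered more kb of the whole locus, and no share of such stretches over the genome was computed.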

How the data were processed

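NS-seq peaks of 2 control and 2 siORCA samples were used. The tools named are BWA, SAMtools and MACS2, with the T2T-CHM13 genome, according to the submitters' processing notes, and their versions are not given in the sources used here. Broad peaks were deposited, 1 list per sample, and each peak carries a score, a fold enrichment (a linear ratio), a −log10 p-value and a −log10 q-value as deposited by the authors. The lists hold no counts, so depth and counting error are unknown. The caller's background sample is likewise not stated. Whether replicates came from separate cultures is not in the labels, and the spread behind each p-value may be technical.

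Members were assigned to bins by start, and covered bp by intersection. Bins were tested with limma 3.58.1 in R 4.3.3 (lmFit, eBayes with trend, Benjamini-Hochberg over all 31008 bins, threshold 0.05) on log2(covered bp + 100 bp) minus log2 of the list's covered length, after a filter of 500 bp on the mean, a scale that understates changes of sparse bins. The limma step was tried on simulated bins with the same noise in every list and no empty bins. That setting differs from these data, so it does not show what the fit can detect in the locus. Single values were compared with an exact permutation test. Peaks were merged where they touched, with a minimum of 1 bp for overlap between lists. The remaining work was done in Python 3.11.15 with pandas 2.3.3, numpy 2.4.6, scipy 1.17.1 and matplotlib 3.10.9.

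Named by rule were bins past the threshold or, if none passed, the 3 each way with the smallest p and groups that did not overlap. The rule also named the 5 richest bins, constant regions within 100 kb of MYC, the 5 constant regions with the highest lowest fold, the 3 widest gained and lost regions and the 3 longest peak-free stretches on each side. Other positions were chosen after their values were seen. The locus and the rules were chosen with earlier results of these data known. Alternatives were a stricter list, lists at one covered length, each sample left out, another pseudocount, no filter, median centring, the replicate block, other bins, merging over 1 kb and a narrower window. Sequence of the locus is not reported here.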

Additional observations from a re-analysis of the deposited data

How the results depend on the processing

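The larger locus share in siORCA kept its direction with a stricter list (peaks at −log10 q of 3 or more), with lists at one covered length and in the inner 2 Mb. Leaving out each sample gave −0.00307 to 0.102 percentage points, negative without siORCA 2. The difference in median width ran from −22.3 to 25.8 bp (negative without control 2 or siORCA 2), and that in peak count from 184.5 to 221.5, but it was 73 with lists at one covered length, against 203. No bin of the locus was called (0 in limma) under any alternative except without control 1 (range 0 to 1 with each sample left out). Without siORCA 2, 0 bins had an unadjusted p under 0.05 as higher in limma and 1 as lower.

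Constant regions numbered 37 with the stricter list (6.83%, against 8.58% over the genome) and 103 to 153 with a sample left out. In each of these settings they were a smaller share of regions in the locus than over the genome. Gained regions numbered 44 at one covered length and 131 to 313 with a sample left out, and lost regions 20 to 136, since fewer lists then define each class. Their shares are given beside those of the genome with the merged regions above. The longest upstream peak-free stretch was 94.3 kb with the stricter list and 40.1 to 51.2 kb with a sample left out, and the cause of the first was not tested.

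The deviations of same-numbered samples had a weak negative correlation (−0.165 over 31008 bins), and the numbers were not taken to pair samples. A correlation this weak cannot show whether same-numbered samples were processed together. With the replicate block 0 bins of the locus were called in limma (6 at an unadjusted p under 0.05), and 0 with the crossed block, chosen after seeing the data, which called 3 bins higher and 6 lower over the genome. Depth is unknown, which limits every count of peaks.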

Other observations

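One bin downstream of MYC, from 130.40 to 130.45 Mb, held no peak in either control list and 8 peaks (1358 bp) in siORCA 1 and 6 (1723 bp) in siORCA 2. It lies inside the 516 kb that hold no constant region. Its 5 gained regions were the most of any bin together with the bin from 129.00 Mb, and the widest ran from 130442108 to 130442893, with 310 and 786 bp in siORCA 1 and siORCA 2. The bin did not pass in limma (adjusted p = 0.998, SE 1.81), and with both controls at 0 no fold is given. It was singled out after its values were seen.

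Lists overlapped in the locus in the same order as over the genome at the top: the Jaccard index (shared length over joint length) was 0.259 for control 1 with siORCA 2 and 0.254 for siORCA 1 with siORCA 2, against 0.179 for control 1 with control 2. Over the genome these were 0.291, 0.282 and 0.187. In siORCA 2, 53.6% of the peaks of the locus overlapped siORCA 1, 40.1% control 1 and 34.9% control 2. Those lists held 557, 319 and 356 peaks in the locus, so a longer list can give a higher share. The shares were not set beside values over the genome.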
